A study of Homo sapiens with 6 samples.

Results

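Nuclear genes for the protein components of the mitochondrial ribosome were compared between HT-1376 cells after SHMT2 knockdown and control cells. The members were chosen by symbol, as the protein-coding genes of GENCODE release 44 in the count table whose names begin with MRPL (large subunit) or MRPS (small subunit) and a digit. This gave 78 of the 63241 genes listed, with 49 in the large and 29 in the small subunit. In siSHMT2 vs. siNC, 0 of the 35 members with enough counts for a test had an adjusted p under 0.05, as did 0 of all 7207 genes tested (0.0%). The member with the smallest unadjusted p was MRPL49, a component of the large subunit, which was 1.94-fold higher in siSHMT2 with an adjusted p of 1.00 by edgeR. The summed level of the large subunit genes was 1.05 times and that of the small subunit genes 0.992 times the siNC mean, and in both the groups overlapped. Without MRPS22 and MRPS25, which held most of its counts, the small subunit sum was 1.08 times the siNC mean, with groups that did not overlap. This last sum was added after the counts were seen and was not tested. Among all genes tested, 9.2% had groups that did not overlap.

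The HT-1376 line derives from a human bladder carcinoma and is labelled as wild type in all 6 libraries. Cells received 1 siRNA against SHMT2 (siSHMT2, 3 libraries) or a non-targeting siRNA (siNC, 3 libraries) and were collected after 24 h, so the groups share the line, the transfection and the time and differ in the siRNA. The study calls the replicates biological, and the labels do not say whether they were separate cultures, so the p-values measure the spread between these libraries. A library held between 533689 and 890574 counts on genes, with 817748, 660559 and 890574 in siNC replicates 1 to 3 and 533689, 818859 and 815061 in siSHMT2 replicates 1 to 3. The shallowest library, siSHMT2 replicate 1, stood apart on the first principal component of log2 CPM (CPM, the counts of a gene scaled to 1e+06 counts of the TMM-normalized library), which held 27.6% of the variance. Its score was 33.7, while the other 5 libraries lay between -12.5 and -1.02.

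The mitochondrial ribosome translates the few mRNAs of the mitochondrial genome, which encode core subunits of the respiratory chain and of ATP synthase. Its rRNAs are made in the mitochondrion, while all of its proteins are encoded in the nucleus, made in the cytosol and imported. Compared with bacterial ribosomes it has less RNA and more protein, so some members have a bacterial counterpart and others do not. SHMT2 is the mitochondrial serine hydroxymethyltransferase. The one-carbon units that it makes from serine are used to formylate the initiator methionyl-tRNA and to modify the wobble base of several mitochondrial tRNAs, both of which serve mitochondrial translation. The symbols do not follow the subunits in every case. MRPS30 and MRPS18A encode proteins that structures place in the large subunit, and MRPS36 encodes a protein of the 2-oxoglutarate dehydrogenase complex. They were kept where their symbols put them.

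The target was lower in the siSHMT2 libraries. SHMT2 (ENSG00000182199, chromosome 12 of GRCh38 from 57229573 to 57234935, plus strand) had counts of 28, 15 and 20 in siNC replicates 1 to 3 and of 9, 2 and 5 in siSHMT2 replicates 1 to 3. Every siSHMT2 library lay below every siNC library. The log2 fold change was -1.78 ± 0.48 (SE), and the adjusted p was 0.93 in edgeR's quasi-likelihood test (Benjamini-Hochberg method). The knockdown shows in the direction of the counts and did not pass the adjusted threshold at these counts. Apart from the sequencing, the study reports lower SHMT2 RNA by RT-qPCR and lower SHMT2 protein by Western blot. Without siSHMT2 replicate 1 the log2 fold change was -2.58.

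The exons of many member genes are overlapped by exons of a gene on the other strand, and the first values to read are those of these pairs. In GENCODE release 44, 30 of the 78 members (38.5%) shared exonic bases with a gene on the opposite strand, close to the 36.1% of all protein-coding genes in the table. In 17 members the overlap covered at least 10% of the exonic bases. The library kit keeps the strand of the RNA, while the counting program, its strand setting and its annotation release are not given in the sources used here. The listed gene lengths equal the exonic bases of release 44 for 9 of the 78 members and are shorter for the other 69, with a median of 76.4% (MRPS22 is listed with 6557 bases and has 16385 in release 44), so the overlaps given here need not be those of the annotation that was counted.

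Short stretches of 4 members are shown because each lies in the exons of the member and of its partner at once. The first 3 are coding sequence of the partner and lie within annotated exons of a small subunit member, and the fourth is coding sequence of the member. Each is written 5′ to 3′ on the strand of the member, with the reference bases of GRCh38 and no part in capitals.
MRPS22 (COPB2 on the other strand, chr3:139359058-139359117, plus strand): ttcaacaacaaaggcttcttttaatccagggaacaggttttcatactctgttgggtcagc
MRPS25 (NR2C2 on the other strand, chr3:15013659-15013718, minus strand): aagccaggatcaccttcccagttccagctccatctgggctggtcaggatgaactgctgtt
MRPS18C (ABRAXAS1 on the other strand, chr4:83467454-83467504, plus strand): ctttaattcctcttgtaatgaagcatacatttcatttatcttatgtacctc
MRPL49 (SYVN1 on the other strand, chr11:65122355-65122414, plus strand): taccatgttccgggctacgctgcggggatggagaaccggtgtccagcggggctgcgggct
A read from any of these bases belongs to the one gene or to the other by its strand alone.

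MRPS22 and COPB2, which encodes a coat protein of vesicles between the Golgi and the endoplasmic reticulum, shared 6378 exonic bases, or 38.9% of those of MRPS22. MRPS22 was listed with 15864 counts over the 6 libraries and COPB2 with 1222. MRPS25 and NR2C2, a nuclear receptor gene, shared 7157 bases, with 11834 counts for MRPS25 and 4283 for NR2C2. MRPS22 and MRPS25 thus held 84.3% of the 32860 counts of all members, and the next member, MRPS18C, had 613. MRPL53 was the opposite case: 79.4% of its exonic bases lie under a lncRNA gene (ENSG00000286883) with 1041 counts, and MRPL53 itself had 0 counts in every library. A count of 0 allows up to 0.661 CPM, here without the TMM factor, over the 6 libraries together (3 counts, for counting error only). Exons of another gene on its own strand cover 72.8% of its exonic bases, and how reads shared by such genes were counted is not given in the sources used here, so this bound holds for the reads assigned to MRPL53 and not for its transcript.

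Gene pairs outside the members show how the table divides reads between strands. MALAT1, an abundant nuclear lncRNA, was listed with 1916 counts, and TALAM1, annotated on its other strand, with 138110. TUBA1B, a tubulin gene, had 1488 counts and the antisense gene TUBA1B-AS1 had 100834. In the mitochondrial genome, MT-ND6, which has the only mRNA on its strand, had 98918 counts, against 11569 for MT-CO1 on the other strand. These pairs were looked up after their values were known. In these pairs the larger count was that of TALAM1, TUBA1B-AS1 and MT-ND6. Whether the counts of a member are reads from its own transcript or from the opposite strand was not tested, for the members without an annotated partner as well. Every level and fold change given here is that of the listed gene as counted and need not be that of its transcript.

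**Figure D1:**
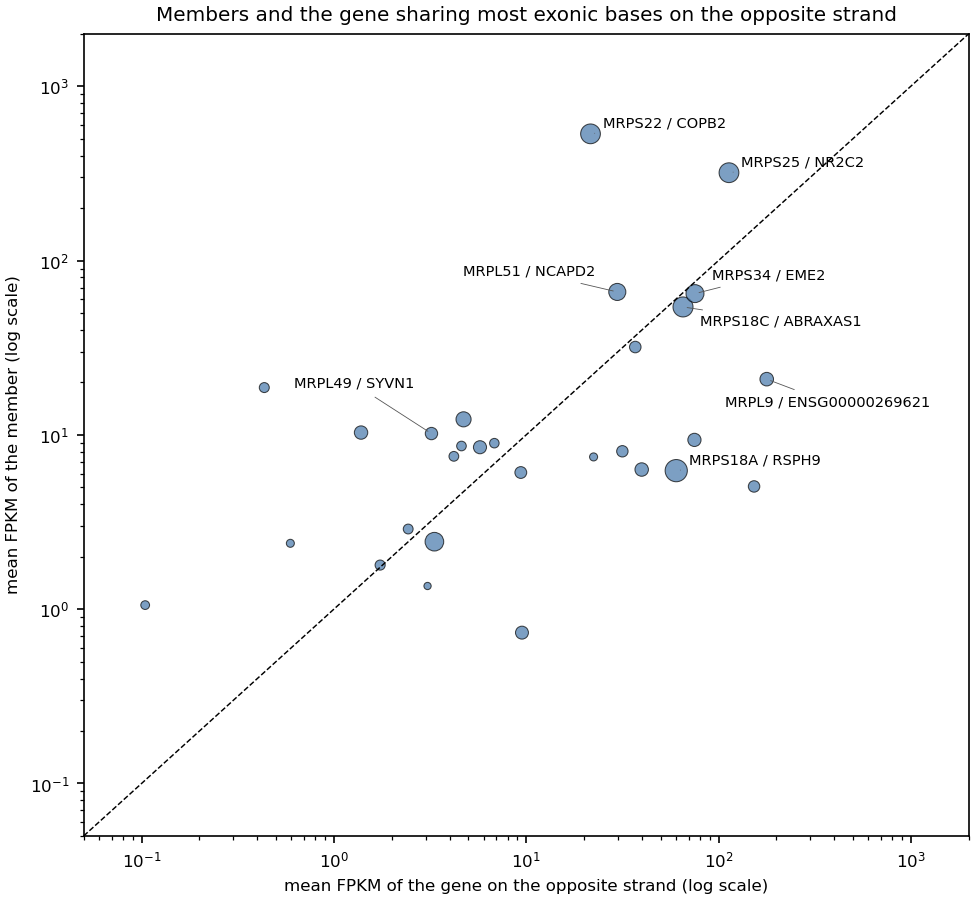
Mean FPKM over the 6 libraries of each member (y axis, log scale) against that of the gene sharing the most exonic bases with it on the opposite strand (x axis, log scale), for 29 pairs with counts in both genes. The area of a point grows with the share of the member's exonic bases in the overlap, and the dashed line marks equal values. MRPL9 has an equal overlap with OAZ3 and ENSG00000269621, and the latter is plotted. The member lies above the line in 15 pairs and below it in 14, and MRPS22 lies farthest to the top.

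Levels between genes are compared in FPKM, which divides the count by the listed gene length and the library total. The median mean FPKM of the 78 members was 5.69, against 73.5 for the 86 genes of cytosolic ribosomal proteins. MRPS22 stood highest with 534 ± 12.7 (SD, n = 3) in siNC and 532 ± 21.0 in siSHMT2, followed by MRPS25 with 324 ± 8.32 and 314 ± 5.99. These levels do not overlap each other in any library. Then came MRPL51 with 61.3 ± 10.2 in siNC, MRPS34 with 63.3 ± 6.09 and MRPS18C with 51.9 ± 3.26. The level of MRPL51 did not differ from that of MRPS34 or of MRPS18C beyond its spread. All of these 5 genes have at least 25% of their exonic bases under exons of the opposite strand. The highest members without any such overlap were MRPL24 with 22.7 ± 6.49 and MRPS26 with 24.01 ± 9.33 in siNC. The median total over members was 38.5 counts in the 6 libraries together for the 48 members with no overlap (range 4 to 120) and 267 for the 9 members with 25% or more (range 0 to 15864). Within the latter, MRPL53 with 0, MRPL43 with 25 and MRPS18A with 32 counts lay below the median of the members with no overlap. The part of the opposite strand in these levels was not tested.

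**Figure D2:**
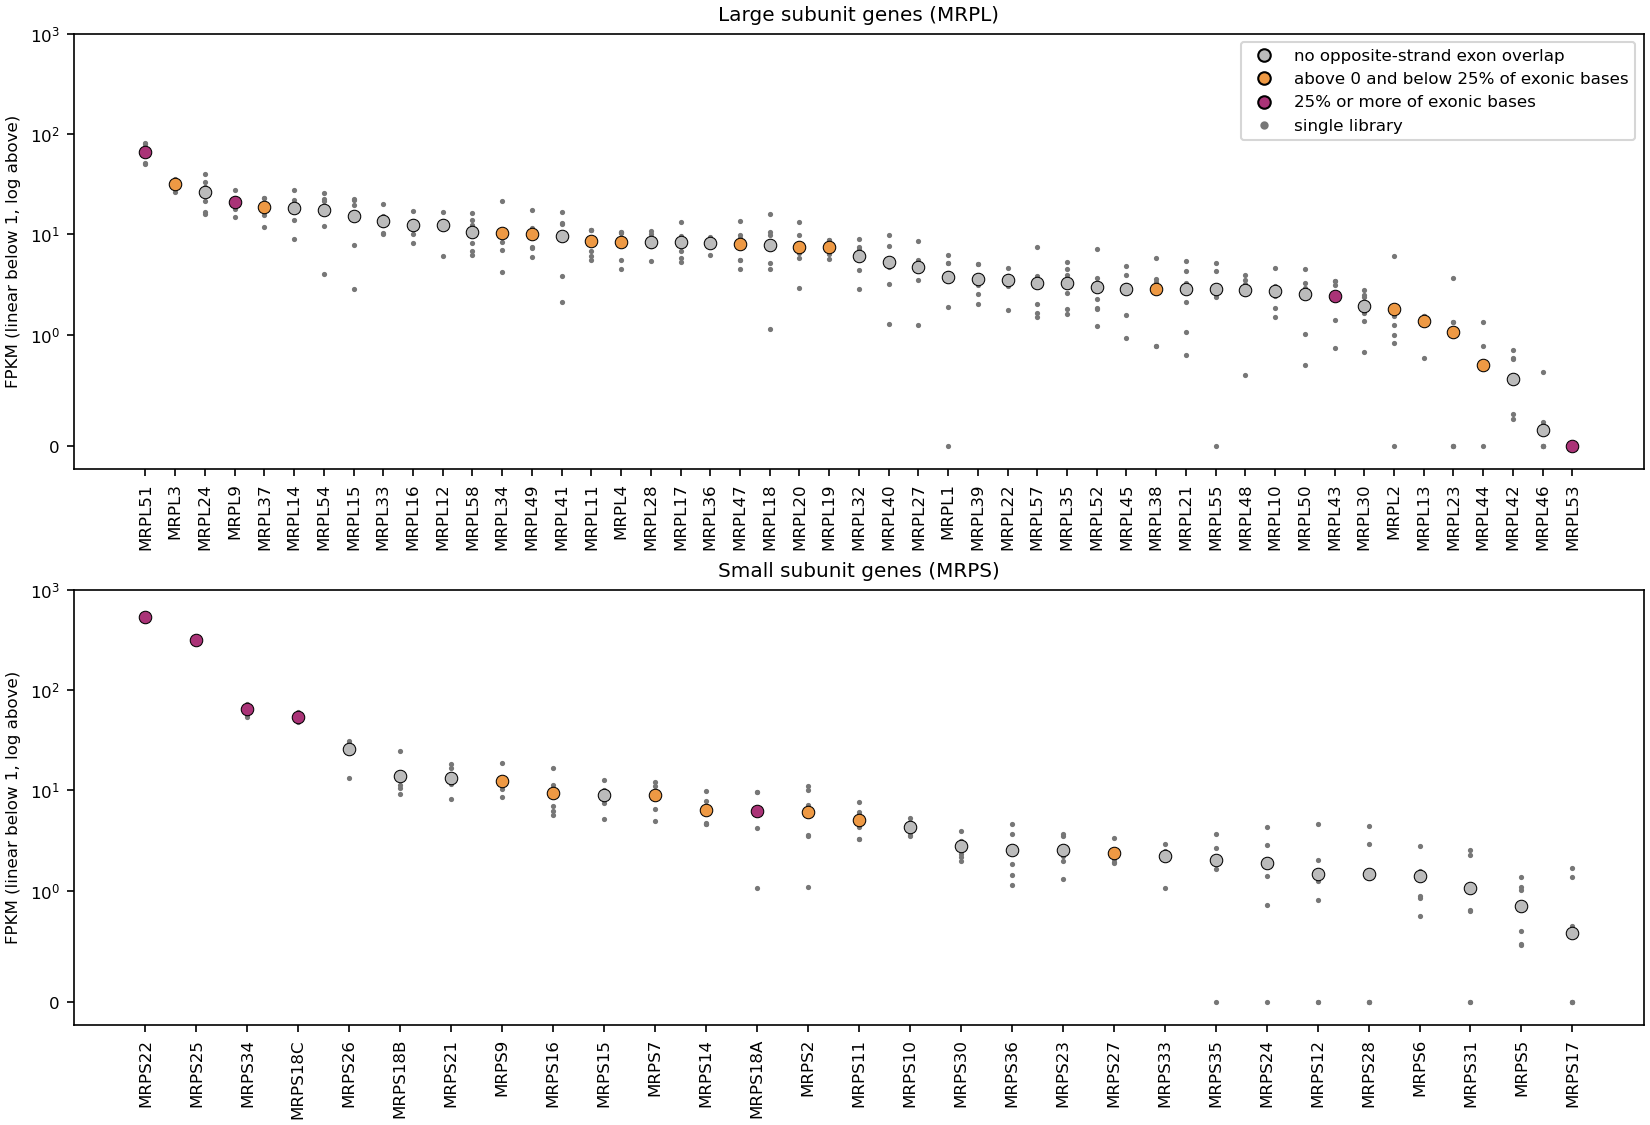
FPKM of all 78 members, with the large subunit above and the small subunit below, ordered by the mean of the 6 libraries (large points) with the single libraries as small dots. The y axis is linear below 1 and logarithmic above, and the colour gives the share of exonic bases under exons of the opposite strand. MRPS22 and MRPS25 stand apart at the left of the small subunit, and MRPL53 is at 0.

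Low counts decide which members can be compared, and why the counts on genes are this low was not tested. The filter on low counts kept 7207 genes in the table and 35 of the 78 members, with 19 of 49 in the large and 16 of 29 in the small subunit, and 43 members were not tested. Fold changes are given for the 29 members with 60 or more counts over the 6 libraries, of which 14 are in the large and 15 in the small subunit, and all of them were tested. For 22 of them the fit was repeated without each library in turn, and in 20 the log2 fold change moved by more than 1.5 times or turned its sign, the exceptions being MRPL49 and MRPS21. Within a group the coefficient of variation of these 29 genes had a median of 21.6% in siNC (range 2.22% to 51.6%) and of 24.7% in siSHMT2 (range 1.84% to 71.2%). The median standard error of the log2 fold change was 0.40 for the tested members, against 0.31 over all tested genes.

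Of the 35 members tested, 20 had a higher and 15 a lower fitted level in siSHMT2. At an adjusted p under 0.05, 0 members passed in edgeR's quasi-likelihood test, and 0 of 7207 genes did (0.0%). At an unadjusted p under 0.05, 1 member was higher and 0 were lower, against 1.94% of all tested genes higher and 1.9% lower. By DESeq2 the numbers of members were also 0 at the adjusted threshold, and 1 higher and 0 lower at the unadjusted one. In that fit 0.777% of all tested genes were higher and 0.846% lower at the unadjusted threshold. The 3 siSHMT2 libraries lay above the 3 siNC libraries in 2 members, MRPL49 and MRPS9, and below them in 0, where 4.65% and 4.55% of all tested genes did so. These shares of the members are near those of all genes, and 1 or 2 genes of 35 are not a result about the group. The median log2 fold change was -0.04 for the large subunit, 0.15 for the small subunit and -0.0010 over all tested genes. The large subunit median turned positive in each of the 6 fits without 1 library (0.0213 to 0.1624). In these fits the small subunit median ran from 0.042 (without siNC replicate 1) to 0.1713 (without siSHMT2 replicate 1). The difference between the subunits was not tested.

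**Figure D3:**
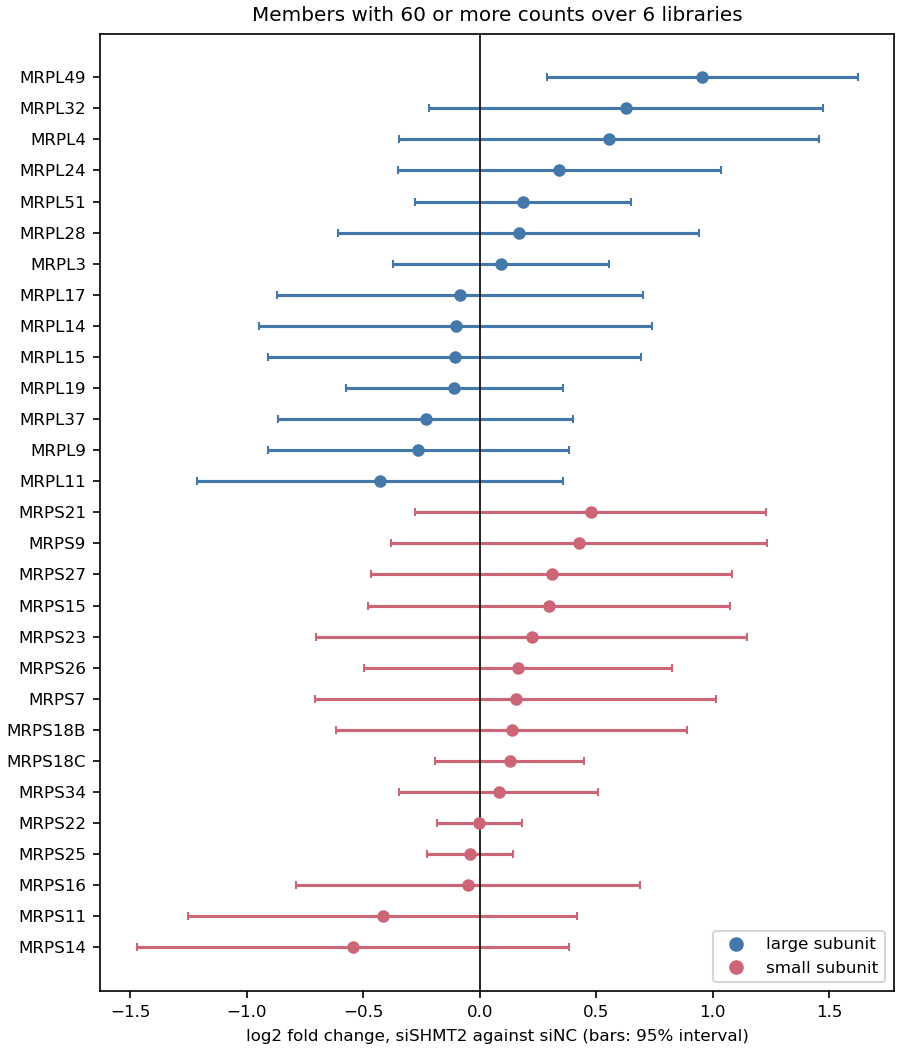
Log2 fold change in siSHMT2 vs. siNC (x axis) of the 29 members with 60 or more counts over the 6 libraries, with bars of the 95% interval, coloured by subunit. The bars of MRPL49 lie above 0, those of the other members include 0, and the narrowest bars are those of MRPS22 and MRPS25.

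In the large subunit, 7 of the 14 genes with 60 or more counts had a higher and 7 a lower fitted level in siSHMT2, with a median log2 fold change of 0.0026. MRPL49 (ENSG00000149792, chromosome 11 of GRCh38 from 65122183 to 65127371, plus strand) encodes mL49, a protein found in mitochondrial ribosomes alone. Its CPM was 18.7, 16.6 and 19.3 in siNC replicates 1 to 3 and 29.1, 31.3 and 45.1 in siSHMT2 replicates 1 to 3, from 15, 10 and 17 and from 15, 24 and 36 counts. The groups did not overlap, and siSHMT2 replicate 3 was the highest. The log2 fold change was 0.96 ± 0.34 (SE), with an unadjusted p of 0.0073 and an adjusted p of 1.00 in edgeR's quasi-likelihood test (Benjamini-Hochberg method). Without siSHMT2 replicate 1, the library that stood apart, the log2 fold change was 1.06. Without siSHMT2 replicate 3 it was 0.72 and the unadjusted p of the edgeR fit 0.075. SYVN1, a ubiquitin ligase gene that shares 356 bases (11.6%) with MRPL49 on the other strand as shown above, had 70 counts and a log2 fold change of -0.12 ± 0.45 (SE).

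The next large subunit genes by p in the upward direction did not pass the threshold. MRPL32 encodes bL32m, which is cut by the m-AAA protease before it enters the ribosome. It had a CPM of 19.9, 13.3 and 7.95 in siNC and of 21.4, 16.9 and 25.1 in siSHMT2, and the groups overlapped through siNC replicate 1. MRPL4 (uL4m) had 7.47, 9.95 and 17.0 in siNC and 15.5, 18.2 and 17.6 in siSHMT2, again with an overlap through a single siNC library, replicate 3. Their log2 fold changes were 0.63 ± 0.43 (SE) and 0.55 ± 0.46 (SE). With a library left out, that of MRPL32 ran from 0.32 (without siNC replicate 3) to 1.04 (without siNC replicate 1) and that of MRPL4 from 0.31 (without siNC replicate 1) to 0.99 (without siNC replicate 3). MRPL24 (uL24m) had a log2 fold change of 0.34 ± 0.35 (SE), with 0.12 without siSHMT2 replicate 1 and 0.65 without siSHMT2 replicate 2.

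In the downward direction, MRPL11 encodes uL11m of the stalk base, where translation factors bind. Its CPM was 24.9, 16.6 and 24.99 in siNC and 25.2, 14.3 and 12.5 in siSHMT2, with a log2 fold change of -0.43 ± 0.40 (SE). In siSHMT2 replicate 1 the value was the highest of all 6 libraries, so the groups overlapped through that library. The siSHMT2 replicates 2 and 3 lay below every siNC library. MRPL9 had a log2 fold change of -0.26 ± 0.33 (SE) and MRPL37 of -0.23 ± 0.32 (SE). Among the large subunit genes with the most counts, MRPL19 had -0.11 ± 0.24 (SE), MRPL51 0.19 ± 0.24 (SE) and MRPL3, a protein near the peptidyl transferase centre, 0.09 ± 0.24 (SE). For MRPL3 the 95% interval of the log2 fold change ran from -0.37 to 0.55, which is the precision that about 250 counts gave.

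**Figure D4:**
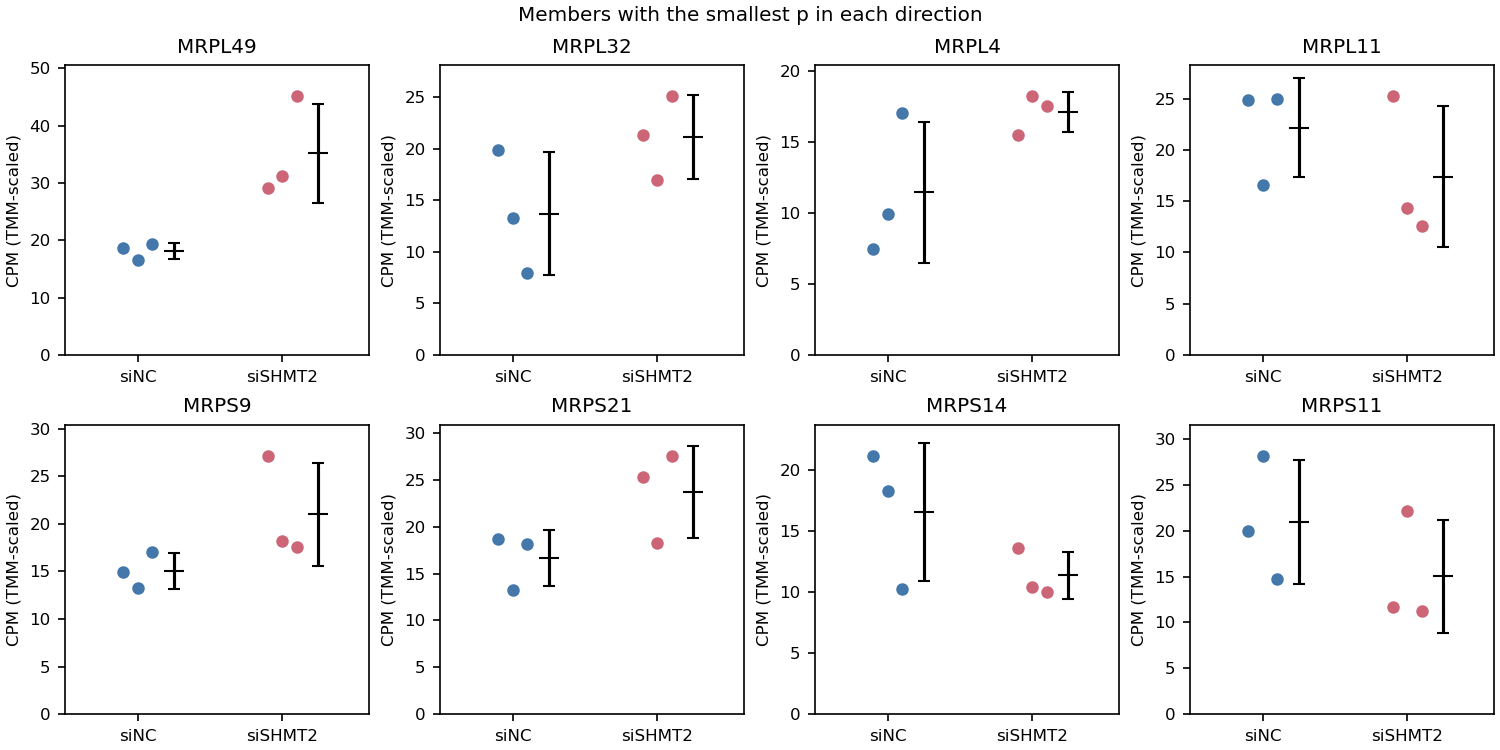
CPM (TMM-scaled, y axes starting at 0) of 8 members with small p-values in either direction, 4 of each subunit. Points are single libraries in the order of replicates 1 to 3, and the bars give the mean ± SD of 3 libraries. The points of the groups are separate in MRPL49 and MRPS9 and overlap in the other 6 genes.

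In the small subunit, 10 of the 15 genes with 60 or more counts had a higher and 5 a lower fitted level in siSHMT2, with a median log2 fold change of 0.14. Of these 15 genes 0 had an unadjusted p under 0.05, beside 1.94% of all tested genes higher and 1.9% lower. So few genes give no result about the subunit. The genes listed highest were also those measured best. MRPS22 (ENSG00000175110, chromosome 3 from 139005806 to 139360497, plus strand) encodes mS22, a protein without a bacterial counterpart. It was listed with 2922, 2326 and 3037 counts in siNC and 1838, 2985 and 2756 counts in siSHMT2, or a CPM of 3637, 3856 and 3450 in siNC and of 3569, 3891 and 3455 in siSHMT2. The libraries of the groups were interleaved. The log2 fold change was -0.0030 ± 0.093 (SE), with a 95% interval from -0.19 to 0.18. MRPS25 (ENSG00000131368, chromosome 3 from 15009611 to 15065339, minus strand), which encodes mS25, had a CPM of 2712, 2959 and 2600 in siNC and of 2625, 2723 and 2683 in siSHMT2. Its log2 fold change was -0.04 ± 0.094 (SE), with a 95% interval from -0.23 to 0.14. These are the narrowest intervals among the 29 genes. On the opposite strand, COPB2 had a log2 fold change of 0.12 ± 0.14 (SE) and NR2C2 of 0.13 ± 0.11 (SE).

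MRPS18C, the member with the third highest count, had a CPM of 137, 131 and 134 in siNC and of 136, 162 and 140 in siSHMT2, and siSHMT2 replicate 1 lay among the siNC libraries. The log2 fold change was 0.13 ± 0.16 (SE), and that of ABRAXAS1 on the other strand was -0.08 ± 0.13 (SE). MRPS34 (mS34) had a log2 fold change of 0.08 ± 0.22 (SE), beside -0.09 ± 0.12 (SE) for EME2 on the other strand, a nuclease subunit gene with 2420 counts against 308 for MRPS34.

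MRPS9 (ENSG00000135972) encodes uS9m, which reaches towards the tRNAs in bacterial ribosomes. It had a CPM of 14.9, 13.3 and 17.0 in siNC and of 27.2, 18.2 and 17.6 in siSHMT2, and the groups did not overlap. The gap between them was small beside the spread within siSHMT2, and the log2 fold change was 0.43 ± 0.41 (SE). MRPS9-AS1 on the other strand covers 20.3% of the exonic bases of MRPS9, with 22 counts against 77. MRPS21 (bS21m) had 18.7, 13.3 and 18.2 in siNC and 25.2, 18.2 and 27.6 in siSHMT2, with groups that overlapped and a log2 fold change of 0.48 ± 0.38 (SE). MRPS27, which encodes a pentatricopeptide repeat protein, had 0.31 ± 0.40 (SE), and MRPS26 (mS26) had 0.16 ± 0.34 (SE).

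The lowest fitted values of the small subunit were those of MRPS14 and MRPS11. MRPS14 (uS14m) had a CPM of 21.2, 18.2 and 10.2 in siNC and of 13.6, 10.4 and 10.0 in siSHMT2. The groups overlapped through siNC replicate 3, and the log2 fold change was -0.55 ± 0.47 (SE). CACYBP on the other strand covers 14.9% of the exonic bases of MRPS14, with 509 counts against 60. MRPS11 (uS11m) had 19.9, 28.2 and 14.8 in siNC and 11.6, 22.2 and 11.3 in siSHMT2, with a log2 fold change of -0.42 ± 0.42 (SE), which was -0.17 without siNC replicate 2 and -0.83 without siSHMT2 replicate 2. MRPS16 (bS16m) had -0.05 ± 0.38 (SE). DNAJC9-AS1, the lncRNA gene that covers 14.1% of the exonic bases of MRPS16, had 972 counts against 105, a log2 fold change of 0.35 ± 0.15 (SE) and an unadjusted p of 0.021 in the edgeR fit.

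A small family among the members comprises 3 paralogs of a single bacterial protein, S18, and in the ribosome each copy has its own place. MRPS18C (bS18m) sits where the bacterial protein sits, MRPS18B (mS40) elsewhere in the small subunit and MRPS18A (mL66) in the large subunit. They were listed with 613, 97 and 32 counts over the 6 libraries. MRPS18B had a CPM of 22.4, 26.5 and 17.0 in siNC and of 40.8, 19.6 and 15.0 in siSHMT2, so the siSHMT2 libraries held both the highest and the lowest value, and its log2 fold change was 0.14 ± 0.38 (SE). MRPS18A had 7.47, 8.29 and 11.4 in siNC and 11.6, 5.21 and 1.25 in siSHMT2, too few counts for a fold change, while RSPH9 on its other strand, over 50.9% of its exonic bases, had 713. MRPL37 and MRPS30, which are related to each other and both lie in the large subunit, had 136 and 55 counts. MRPS30 had a CPM of 8.71, 14.9 and 10.2 in siNC and of 9.71, 18.2 and 13.8 in siSHMT2, and the groups overlapped. Pseudogenes are common among these genes, with 79 in the annotation that carry a member's symbol, and reads shared with a near-identical copy are uncertain.

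Members that the ribosomal protein nomenclature names as specific to mitochondria (mL and mS names) and the other members were also set side by side. The first class holds MRPS18A and MRPS18B by these names, although both are paralogs of a bacterial protein. Of the 31 mitochondrion-specific members, 12 were tested, 8 higher and 4 lower, with a median log2 fold change of 0.15. The other 47 members, which by default include MRPS36, had 23 tested, 12 higher and 11 lower, with a median of 0.09. At an unadjusted p under 0.05, 1 gene of the first class (MRPL49, higher) and 0 of the second passed, beside 1.94% of all tested genes higher and 1.9% lower. These counts do not show a difference between the classes, which was not tested.

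Per subunit, counts were summed in each library and scaled by TMM. The large subunit genes summed to 675, 593 and 719 CPM in siNC, with a mean of 662 ± 63.7 (SD, n = 3), and to 736, 689 and 654 CPM in siSHMT2, with a mean of 693 ± 40.8. The small subunit genes summed to 6822, 7307 and 6544 CPM in siNC (6891 ± 386) and to 6724, 7152 and 6641 CPM in siSHMT2 (6839 ± 274). In both subunits the groups overlapped, and the difference was smaller than the SD of either group. Without siSHMT2 replicate 1 the ratios of siSHMT2 to siNC were 1.02 for the large and 1.00 for the small subunit. Over the 6 sums without 1 library, the large subunit ratio ran from 0.997 (without siNC replicate 2) to 1.09 (without siNC replicate 3) and the small subunit ratio from 0.967 (without siNC replicate 3) to 1.03 (without siNC replicate 2), so both changed direction. All members together took between 0.714% and 0.737% of the counts of a library.

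The small subunit sum was mostly that of MRPS22 and MRPS25. Without these genes it was 486 ± 11.7 CPM (SD, n = 3) in siNC and 524 ± 18.6 CPM in siSHMT2, a ratio of 1.08. This sum was added after the counts were seen. The groups did not overlap, and the nearest libraries were siNC replicate 3 with 494 CPM and siSHMT2 replicate 3 with 503 CPM. Over the small subunit genes with no exon on the opposite strand the sum was 152, 153 and 158 CPM in siNC. In siSHMT2 it was 198, 176 and 163 CPM, a ratio of 1.16. The groups again did not overlap, and siSHMT2 replicate 1, the library that stood apart, was the highest. The same sum in the large subunit was 318 ± 35.7 in siNC and 339 ± 47.4 in siSHMT2, with groups that overlapped. These sums rest on few counts per library and were not tested.

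**Figure D5:**
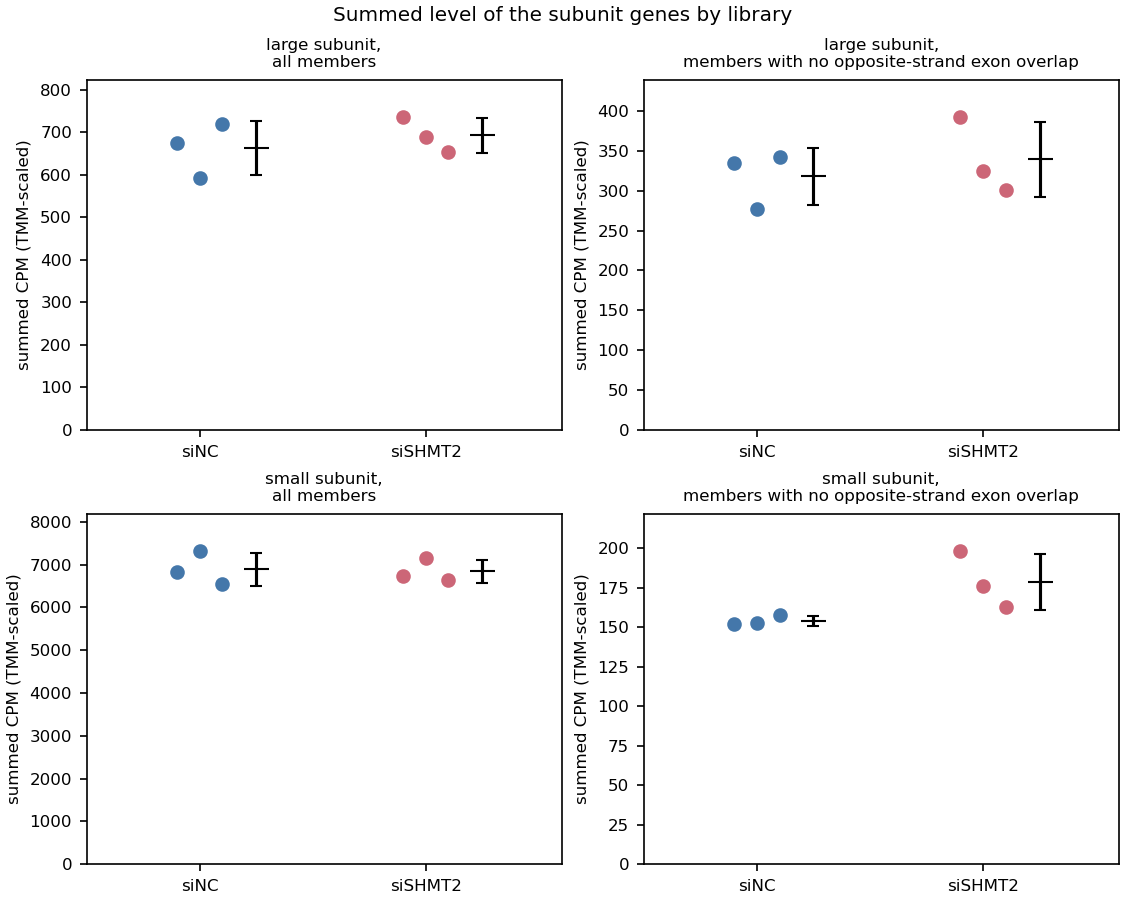
Summed CPM (TMM-scaled, y axes starting at 0) of the large (top) and small (bottom) subunit genes in each library, for all members (left) and for members with no exon overlap on the opposite strand (right). Points are libraries in the order of replicates 1 to 3 and bars the mean ± SD. The groups are separate in the bottom right panel, where the siNC libraries lie between 152 and 158 and the siSHMT2 libraries between 163 and 198, and overlap in the other 3.

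Other genes of mitochondrial translation were read from lists in the same fit. Of 5 mitochondrial ribosomal proteins with other symbols, 4 were tested and 0 had an unadjusted p under 0.05 (1.94% of all tested genes were higher and 1.9% lower), with a log2 fold change of 0.17 ± 0.12 (SE) for GADD45GIP1 (mL64) and of -0.32 ± 0.33 (SE) for DAP3 (mS29), a GTP-binding protein of the small subunit. That of GADD45GIP1 was 0.06 without siNC replicate 1 and 0.25 without siNC replicate 2. Without siNC replicate 1 that of DAP3 was -0.02 and without siSHMT2 replicate 2 it was -0.71. Of 26 genes for ribosome assembly and rRNA modification, 10 were tested and 0 passed, beside the same shares of all genes, with values of 0.31 ± 0.34 (SE) for MTERF4, which targets an rRNA methyltransferase, and -0.43 ± 0.28 (SE) for TRUB2, a pseudouridine synthase. That of MTERF4 was 0.11 without siNC replicate 1, and 0.83 with an unadjusted edgeR p of 0.042 without siNC replicate 3. In 1 of the 10 the siSHMT2 libraries all lay below the siNC libraries, as did those of 4.55% of all tested genes. Both rRNAs of the mitochondrial ribosome, looked up after the fits, had a log2 fold change of -0.07 ± 0.20 (SE) for MT-RNR1, with 509 counts, and of 0.08 ± 0.10 (SE) for MT-RNR2, with 5509.

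Of 14 translation factors and their partners, 8 were tested, with 1 higher and 1 lower at an unadjusted p under 0.05, beside 1.94% and 1.9% of all tested genes. MTRFR, which frees peptides from stalled large subunits, had a CPM of 158, 156 and 162 in siNC and of 204, 194 and 233 in siSHMT2. The groups did not overlap, and the log2 fold change was 0.41 ± 0.15 (SE, unadjusted p of 0.0096 in the edgeR fit). Without siSHMT2 replicate 3 it was 0.32 with an unadjusted p of 0.064 by edgeR, and by limma on log2(FPKM + 1) without a filter the unadjusted p was 0.097. MTRF1L, the main release factor, had 132, 157 and 84.1 in siNC and 73.8, 97.8 and 86.5 in siSHMT2, with a log2 fold change of -0.50 ± 0.20 (SE) and groups that overlapped. Its unadjusted p was 0.018 in the edgeR fit and did not hold at 0.05 in 3 fits without a library. Without siNC replicate 2 the log2 fold change was -0.30 (edgeR p of 0.17), and the edgeR p was 0.066 without siNC replicate 1 and 0.064 without siSHMT2 replicate 1. By limma on log2(FPKM + 1) it was 0.085.

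The last list held MTFMT, which formylates the initiator tRNA, MTO1 and GTPBP3, which use a one-carbon unit to modify the wobble uridine of mitochondrial tRNAs, and TRMU, and 2 of these 4 were tested. TRMU, which adds sulfur to the same uridine and uses no one-carbon unit, had 12.4, 16.6 and 18.2 CPM in siNC and 31.1, 35.2 and 22.6 CPM in siSHMT2. The groups did not overlap, and the log2 fold change was 0.90 ± 0.37 (SE, unadjusted p of 0.019 in the edgeR fit). The unadjusted p was 0.051 by DESeq2, and by edgeR 0.072 without siNC replicate 1 and 0.10 without siSHMT2 replicate 2, with log2 fold changes of 0.75 and 0.74 in the last pair. TRMU has no annotated exon on the opposite strand. Such exons cover 37.8% of the exonic bases of MTRF1L and 17.5% of those of MTRFR. Among the genes named from the earlier lists, the shares are 51.0% for MTERF4, 29.6% for GADD45GIP1, 4.21% for DAP3 and 3.38% for TRUB2. The adjusted p of MTRFR, MTRF1L and TRMU was 1.00 in edgeR's quasi-likelihood test (Benjamini-Hochberg method), so none of the 3 passed.

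The genes of cytosolic ribosomal proteins served as the nearest comparison. Of 86 genes, 75 were tested, 25 with a higher and 50 with a lower fitted level in siSHMT2, with a median log2 fold change of -0.05. At an unadjusted p under 0.05, 1 was higher and 1 lower, beside 1.94% and 1.9% of all tested genes, and the groups were apart in 5, beside 9.2% of all tested genes. Their median standard error, 0.16, was below the 0.40 of the mitochondrial members, and their median total was 681 counts over the 6 libraries against 46.5. The difference between both families was not tested.

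Promoter sequence is a property that the choice by symbol did not use. RefSeq promoters from 250 bases before to 50 after the start were matched for 69 of the 78 members and searched on both strands for the core letters of the sites of NRF1 (GCATGCGC), ETS factors such as GABPA (CCGGAAG) and YY1 (AAGATGGCG), factors known for nuclear genes of mitochondria. The ETS letters were found in 29 members (42.0%), against 14.2% of all protein-coding promoters and 10.7% of all 27305 promoters. The YY1 letters were found in 13 members (18.8%, against 2.74% and 1.85%) and the NRF1 letters in 6 (8.7%, against 4.26% and 3.27%). By subunit the ETS letters were in 17 of 42 large and 12 of 27 small subunit promoters. The last letters of the ETS motif (AAG) are the first of the YY1 motif, so adjoining matches can share these bases. The shares are descriptions and were not tested.

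Promoter stretches are shown of 3 members that have high counts and hold the ETS letters before the start. They are examples and do not stand for all members with high counts. Each is written 5′ to 3′ on the strand of the gene with the reference bases of GRCh38, and the capitals mark the ETS letters in either orientation.
MRPL3 (chr3:131502977-131503023, minus strand): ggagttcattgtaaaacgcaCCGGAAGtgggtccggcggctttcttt
MRPL51 (chr12:6493340-6493401, minus strand): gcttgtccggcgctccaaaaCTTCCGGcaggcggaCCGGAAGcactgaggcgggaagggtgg
MRPS22 (chr3:139343887-139343941, plus strand): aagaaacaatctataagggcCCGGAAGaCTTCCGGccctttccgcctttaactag
MRPL51 and MRPS22 hold the letters in both orientations within these windows. A match describes the sequence and is no evidence that a factor binds there. The RefSeq starts of all 3 lie inside the longer genes of GENCODE release 44. The windows shown for MRPL51 and MRPS22 lie wholly inside these genes.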

How the data were processed

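RNA-seq libraries of HT-1376 cells (3 siNC, 3 siSHMT2) were read from 2 deposited tables, of gene counts and of FPKM values. Per the labels and the study's methods, the authors captured mRNA, made strand-specific libraries, checked reads with FastQC 0.11.9, trimmed them with fastp 0.23.4 and aligned them to GRCh38 with HISAT2 2.2.1. DESeq2 1.42.1 was the authors' tool for differential expression. The deposited counts are whole numbers without normalization. The deposited FPKM values are those counts divided by the listed gene length and the library total (largest relative difference to the recomputed values 2.3e-14). Of the listed genes, 91 have no length, among them the genes of the mitochondrial genome named here and 0 members.

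Counts were compared in R 4.3.3 with edgeR 4.0.16 (TMM, filterByExpr, quasi-likelihood test, group as the only term, two-sided). The p-values of all 7207 tested genes were adjusted together by the Benjamini-Hochberg method. Groups do not overlap where the log2 CPM values of all 3 libraries of one group lie above those of the other group. Summed levels and medians over members have no test. The median count of a tested gene was 25 per library and the biological coefficient of variation 0.127, which limits the precision of low genes. Replicate pairs differed by more than counting noise (chi-square per degree of freedom from 1.74 to 2.33). The alternatives were DESeq2 1.42.0, RLE size factors, library size only, no filter, a minimum of 10 counts in each library, tests by limma 3.58.1 of log2(FPKM + 1) and log2(FPKM + 0.1), a block for the replicate number, and fits without 1 library each. The fit was tested on simulated data. Changes were simulated only in genes with higher counts than most members have, so the simulation does not cover changes in those members. GENCODE release 44, in which 62666 of the listed IDs were found, gave positions, gene types and overlaps, and RefSeq on GRCh38 the promoters.

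The text names SHMT2, in each subunit the 5 members with the most counts and the 4 with the smallest p in each direction among those with 60 or more counts, every member with an unadjusted p under 0.05, the related members (MRPS18A, MRPS18B, MRPS18C, MRPL37, MRPS30), up to 6 members with the largest overlap among those with 60 or more counts, members at 0 counts, and in each other list the gene with the smallest p in each direction. Of the 97 protein-coding genes whose symbols begin with RPL or RPS and a digit, 11 that encode no ribosomal protein (the RPS6K kinases and RPS19BP1) were left out of the cytosolic family. The members and lists were chosen with earlier results of these data known. Figures were drawn with matplotlib 3.10.9.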

Additional observations from a re-analysis of the deposited data

How the results depend on the processing

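SHMT2 was lower in each of the 14 alternatives that tested it, with a log2 fold change from -2.58 (without siSHMT2 replicate 1) to -1.31 (without siSHMT2 replicate 2). MRPL49 was higher in all 15, from 0.72 to 1.06, with an adjusted p from 0.74 to 1.00 over the edgeR, DESeq2 and limma fits. The number of members with an adjusted p under 0.05 was 0 throughout. At the unadjusted threshold, 3 members were higher if low counts were kept and 3 by limma if low values were kept (MRPL49, MRPL50 and MRPL57 in both), of 77 tested in each, and in the latter 1 was lower (MRPL30). Of all genes, 1.74% were higher and 1.61% lower in the first of these fits, and 1.91% and 1.97% in the second. Leaving out a library gave 0 to 1 higher and 0 to 1 lower of 35 to 41 members tested, beside 1.93% to 2.63% of all genes higher and 1.67% to 2.89% lower. The 0 came without siSHMT2 replicate 3, and the lower gene was MRPL20 without siNC replicate 1 and MRPL54 without siSHMT2 replicate 1. Members whose groups do not overlap numbered 6 of 77 if low counts were kept (7.79%, against 7.0% of all genes in that fit), 1 of 14 at a minimum of 10 counts per library (7.14% against 8.99%) and 5 of 77 by limma on unfiltered values (6.49% against 7.0%). With a library left out they numbered 3 of 38 (7.89% against 21.2%, without siSHMT2 replicate 3) to 11 of 41 (26.8% against 19.3%, without siSHMT2 replicate 1).

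The median log2 fold change of the small subunit genes was 0.0346 for the 6 genes with a minimum of 10 counts per library, and 0.042 (without siNC replicate 1) to 0.1713 with a library left out. That of the large subunit was -0.04 as reported, 0.0213 to 0.1624 with a library left out, and 0.026 and 0.0354 by limma on log2(FPKM + 1) and log2(FPKM + 0.1). The log2 ratio of the small subunit sum was -0.01 as reported, 0.22 for members with no opposite-strand overlap and 0.11 without MRPS22 and MRPS25. The share of members with an overlap of at least 10% of their bases was 21.8%, and 51 members had 30 or more counts. Fold changes near 0 changed sign. MRPS22 had 0.0028 with DESeq2 and 0.0024 with RLE size factors. With a library left out the log2 fold change ran from -0.0522 to 0.0418 for MRPS22, -0.3134 to 0.0665 for MRPL19, -0.0844 to 0.015 for MRPS25, -0.0067 to 0.1897 for MRPS34, -0.0602 to 0.3673 for MRPS26, -0.6272 to 0.2114 for MRPS16 and -0.3226 to 0.4128 for MRPS18B. Why the tests differ was not tested.

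The labels do not say whether the replicate numbers pair the libraries. The deviations of same-numbered libraries from their group means correlated at -0.015, 0.048 and -0.012 across the tested genes. Those of libraries with different numbers correlated at -0.031 to 0.045. These values do not show how the libraries were prepared. With the replicate number as a block, 1 of 35 members was higher and 0 lower at an unadjusted p under 0.05 (2.07% and 2.15% of all genes), and 0 passed the adjusted one. The block changed no call among the members.

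Low counts limit most members: 43 were not tested, and the median standard error of the tested members was 0.40.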
